A study of Mus musculus with 8 samples.

Results

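The genes described here encode the replication-dependent histones, the proteins that package newly copied DNA. They were taken by name: every probe set whose platform gene symbol has the current form of a clustered histone gene (H1f, H2ac, H2bc, H3c or H4c followed by a number). That rule found 43 of 20985 probe sets, 1 per gene, and used no measured value. Of the 43 genes, 33 lie on chromosome 13 and 7 on chromosome 3, the locations of the main mouse histone clusters. The other 3 fit the name pattern but not the label, since they lie elsewhere: H1f10 and H1f8 on chromosome 6 and H1f7 on chromosome 15. RefSeq (assembly GRCm38.p6) lists 67 protein-coding genes of this name pattern, and those without a probe set in the table were not analysed here.

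The groups were Kv10.1 -/- knockout mice and Kv10.1 +/+ wildtype mice, all untreated males of 8 weeks, with 4 animals and 4 arrays in each. Kv10.1 is a brain potassium channel encoded by Kcnh1, and the comparison asks which hippocampal transcripts differ when that gene is disrupted. Hippocampus was dissected whole after carbon dioxide inhalation, and each array held RNA of 1 mouse. The sources used here do not give the genetic background, the breeding scheme or the deleted part of Kcnh1. Kcnh1 itself read 8.35 ± 0.062 in knockout and 9.34 ± 0.131 in wildtype hippocampi (SD, n = 4 each; limma adjusted p = 0.00319), in the direction of the labels. Array medians lay between 7.5 and 7.55. On the first principal component, with 44.2% of the variance, wildtype 1 stood at 0.22 and knockout 1 at 0.10. The other arrays lay between -0.11 and 0.0056, with knockout 4 about as far out on the opposite side as knockout 1. The interquartile ranges of wildtype 1 and knockout 1, 2.42 and 2.3, were the widest. These are called the arrays that stand apart below, although only wildtype 1 was clearly separate on that component. Mouse numbers fall into a lower series, with knockout 1 and wildtype 1 to 3, and a higher one, with knockout 2 to 4 and wildtype 4, so that series and genotype overlap.

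As background, most replication-dependent histone genes have no introns, and their mRNAs end in a stem-loop in place of a poly(A) tail. The stem-loop is bound by SLBP, and the mRNAs build up during DNA synthesis and are destroyed when it stops. Core histones H2A, H2B, H3 and H4 form the nucleosome, and linker histone H1 binds where DNA enters and leaves it. Adult hippocampal neurons no longer divide, and the dividing cells of the tissue are mainly progenitors of the dentate gyrus and oligodendrocyte precursors. Some clustered genes are also read in non-dividing cells as polyadenylated mRNAs. The labelling kit named in the labels is a whole-transcript one, which primes along the RNA and does not need a tail. Coding sequences of many core histone genes of one class are nearly the same, less so those of H1 subtypes and testis forms, and all H4 genes of the clusters encode one protein. A probe set may therefore also read neighbours of its class, which was not tested because probe sequences were not used here.

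Promoter sequences from RefSeq (GRCm38.p6) were matched to 38 of the 43 genes by gene number. The stretches shown are those of the 3 genes with the smallest p between genotypes (H4c2, H2ac4 and H3c8), of H4c4, which stood out on the array of wildtype 1, and the 163 bases shared by the head-to-head genes H2ac15 and H2bc15. Each runs 5′ to 3′ up to the base before the start of transcription, over 200 bases for single genes, and the shared stretch is printed on the plus strand. Capitals mark matches on either strand to 3 motifs. The first is CCAAT, the box bound by the factor NF-Y. The second is the box bound by TBP, spelled TATAAA here. The last is the octamer ATGCAAAT, bound by POU factors.
H4c2, chr13:23756737-23756936, plus strand: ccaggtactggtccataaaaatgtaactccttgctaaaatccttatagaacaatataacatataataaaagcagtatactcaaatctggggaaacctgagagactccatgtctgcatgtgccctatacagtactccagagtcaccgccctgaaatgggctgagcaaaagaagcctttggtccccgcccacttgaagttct
H2ac4, chr13:23750888-23751087, plus strand: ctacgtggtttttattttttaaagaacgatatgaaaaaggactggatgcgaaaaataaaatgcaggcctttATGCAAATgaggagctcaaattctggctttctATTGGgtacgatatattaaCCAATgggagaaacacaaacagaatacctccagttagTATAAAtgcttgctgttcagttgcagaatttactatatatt
H3c8, chr13:23535218-23535417, plus strand: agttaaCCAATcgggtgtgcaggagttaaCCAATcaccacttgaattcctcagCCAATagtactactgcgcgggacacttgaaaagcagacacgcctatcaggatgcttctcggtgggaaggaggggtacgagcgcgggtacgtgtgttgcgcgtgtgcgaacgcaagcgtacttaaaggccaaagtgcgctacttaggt
H4c4, chr13:23581368-23581567, plus strand: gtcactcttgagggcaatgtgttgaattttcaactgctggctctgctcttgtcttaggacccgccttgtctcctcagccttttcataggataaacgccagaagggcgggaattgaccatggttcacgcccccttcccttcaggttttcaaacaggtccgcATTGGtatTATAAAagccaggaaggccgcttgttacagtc
H2ac15 and H2bc15, chr13:21753913-21754075, plus strand: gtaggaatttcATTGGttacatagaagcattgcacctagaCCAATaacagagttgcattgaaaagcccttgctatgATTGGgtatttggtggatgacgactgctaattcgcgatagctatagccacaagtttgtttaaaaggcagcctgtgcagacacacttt
The H2ac4 stretch holds all 3 motifs and that of H4c2 holds none of them. Over 300-base windows, from 250 bases before to 50 after the start, CCAAT was present in 32 of 36 windows of clustered members (88.9%), against 37.4% of all 32851 windows. TATAAA was present in 21 of 36 (58.3%), against 13.6% of all windows. The octamer occurred in 11 of 36 (30.6%), against 1.74% of all windows, and those 11 were 5 of the 8 H2A and 6 of the 12 H2B windows. All windows of clustered H1, H2A, H2B and H3 members held CCAAT, while 2 of 6 H4 windows did. Windows of head-to-head genes overlap and are not separate observations, and a match describes letters, not a bound site.

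Levels are the deposited log2 values. Readings of different probe sets depend on their probes and do not rank amounts of RNA. To place them, 125 probe sets of Vmn1r pheromone receptors, genes of the vomeronasal organ, had a median of 5.60 and a 95th percentile of 6.36. The receptor range named below is the 5th to 95th percentile, 5.22 to 6.36, and the highest receptor mean was 8.59. Of the histone members, 30 had a mean above that 95th percentile and 13 at or below it. The means of 13 lay above the median of all probe sets, 7.52. The 43 means ran from 5.11 to 9.67 with a median of 6.67. By class, means above the receptor range were seen for 8 of 9 H1, 3 of 8 H2A, 11 of 13 H2B, 1 of 6 H3 and 7 of 7 H4 genes.

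**Figure D1:**
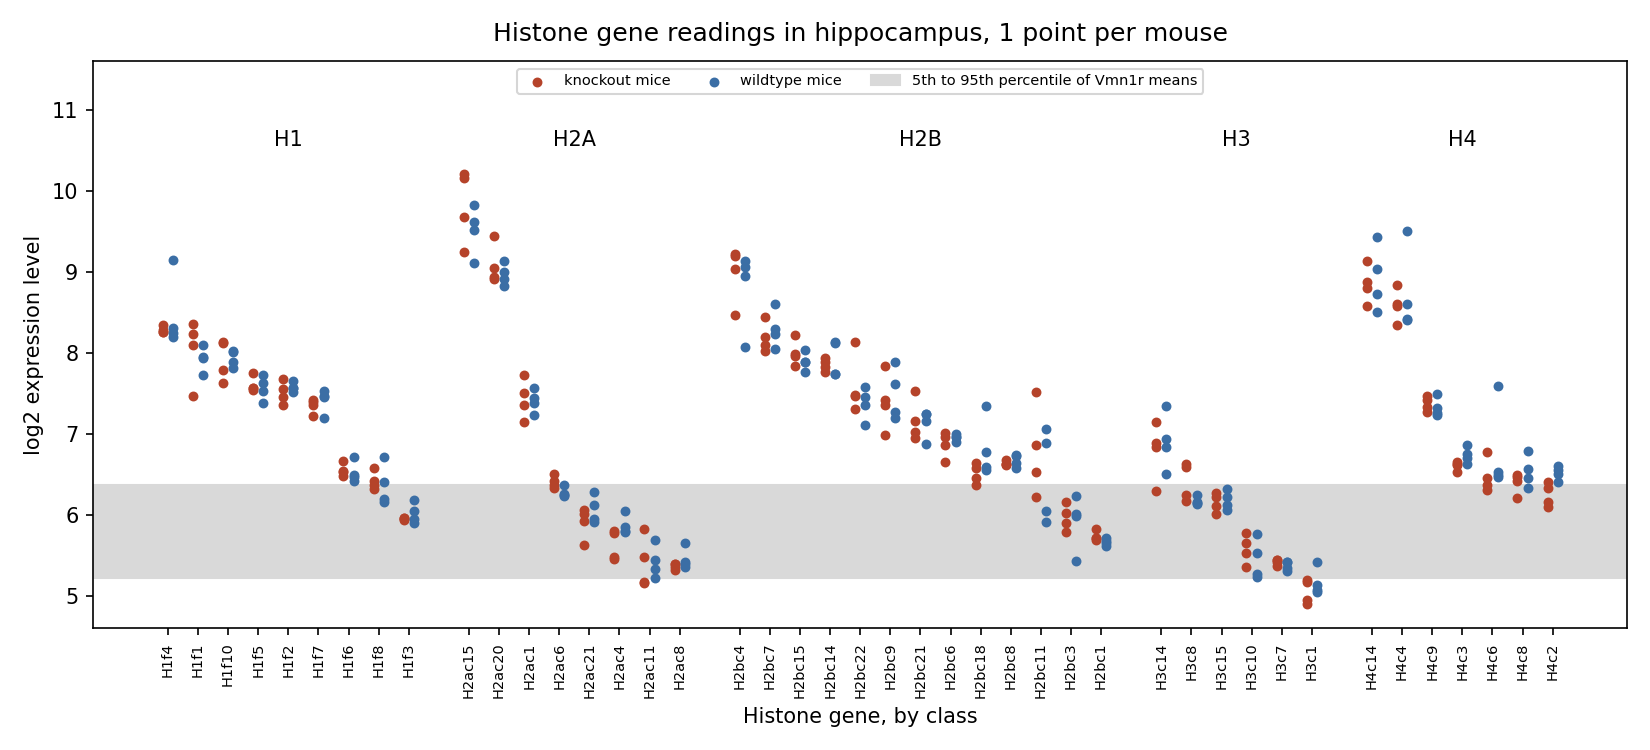
Log2 expression level (vertical axis) of each of the 43 histone genes, grouped by class and ordered by mean, with 1 point per mouse, knockout left and wildtype right of each position. The grey band is the 5th to 95th percentile of the Vmn1r receptor means, 5.22 to 6.36; most H3 genes lie within or below it and all H4 means lie above its upper edge.

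No histone gene passed the test between genotypes. At a limma adjusted p under 0.05 the count was 0 of 43, where 0.00477% of all probe sets passed (Kcnh1 alone). At an unadjusted limma p under 0.05 there were 3 of 43 (6.98%), 1 with a positive and 2 with a negative difference, against 3.16% of all probe sets (1.63% positive and 1.53% negative). None of the 43 genes had knockout values that lay entirely on one side of the wildtype values, against 2.16% of all probe sets. Differences, always knockout minus wildtype on the log2 scale, were positive for 19 genes and negative for 24, with a median of -0.03 beside -0.0025 over all probe sets. For 35 of the 43 genes the 95% interval lay within a 1.5-fold change either way, and for the other 8 it reached beyond. The share over all probe sets is not given here. These intervals concern readings, also of the 13 genes with means at or below the 95th percentile of the receptors. In whole tissue, fewer cells of a type and less RNA per cell cannot be told apart.

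**Figure D2:**
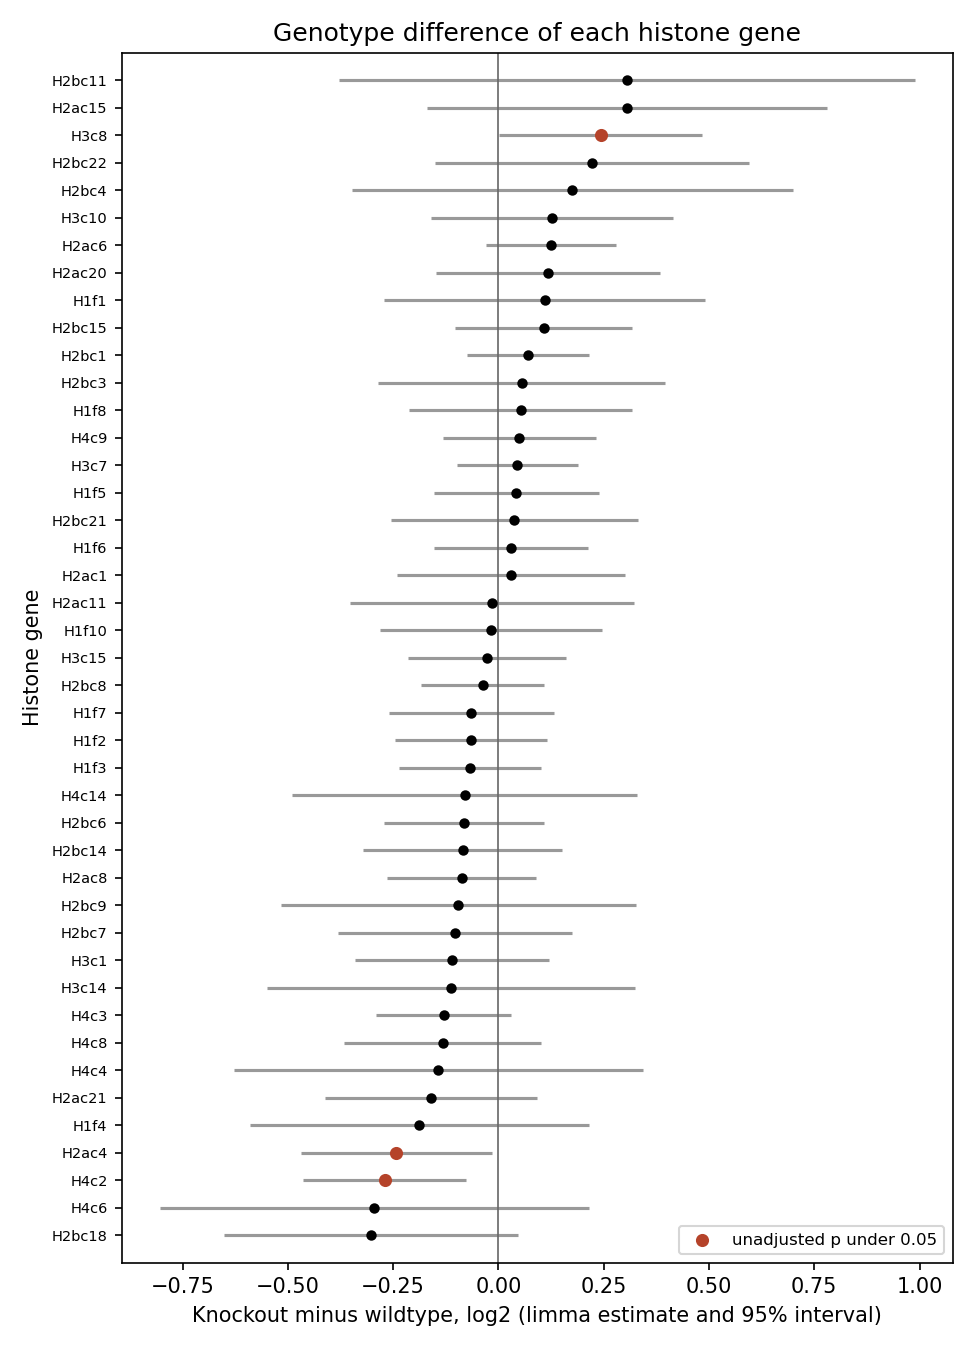
Knockout minus wildtype difference (horizontal axis, log2) of each of the 43 histone genes with its limma 95% interval, ordered by difference. Red points mark H3c8, H2ac4 and H4c2, whose unadjusted p was under 0.05; the estimates run from -0.30 to 0.30.

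No linker histone gene passed the test between genotypes. H1f2, which encodes H1.2, had 7.36, 7.45, 7.55 and 7.68 in knockouts, against 7.56, 7.57, 7.65 and 7.52 in wildtype mice, a difference of -0.06 ± 0.082 (SE) that was -0.02 without knockout 1 and -0.12 without knockout 4. H1f1 had 7.46, 8.23, 8.36 and 8.09 in knockouts, against 7.72, 8.09, 7.95 and 7.94 in wildtype mice, a difference of 0.11 ± 0.172 (SE). In it the lowest values of both groups were those of knockout 1 and wildtype 1, and the difference was 0.30 without knockout 1 and 0.0017 without knockout 3. H1f4, which encodes H1.4, had 8.34, 8.28, 8.25 and 8.25 in knockouts, against 9.14, 8.30, 8.24 and 8.19 in wildtype mice. Its difference of -0.19 rested on wildtype 1 and was 0.04 without it.

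H1f5 differed by 0.04 (-0.0058 without knockout 1 and -0.02 without wildtype 2). H1f3, the dimmest of the somatic H1 genes, averaged 5.95 ± 0.015 in knockout and 6.02 ± 0.126 in wildtype hippocampi (SD, n = 4 each), within the receptor range. All H1 members had a limma adjusted p of 0.997. Of those outside the clusters, H1f10, a linker histone made also outside DNA synthesis, averaged 7.92 ± 0.252 in knockout and 7.93 ± 0.101 in wildtype hippocampi (SD, n = 4 each). H1f7, of spermatids, differed by -0.06 and H1f8, of oocytes, by 0.05.

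The testis forms overlapped between genotypes. H1f6, the testis linker histone H1t, had 6.48, 6.54, 6.66 and 6.52 in knockouts, against 6.41, 6.49, 6.47 and 6.71 in wildtype mice. H2bc1, the testis H2B, had 5.71, 5.68, 5.71 and 5.82 in knockouts, against 5.65, 5.67, 5.61 and 5.71 in wildtype mice, within the receptor range. Its head-to-head neighbour H2ac1, the testis H2A, had 7.14, 7.36, 7.5 and 7.73 in knockouts, against 7.23, 7.44, 7.38 and 7.56 in wildtype mice. In H2bc1 all wildtype mice but wildtype 4 lay below every knockout, while the other 2 genes were interleaved. The differences of 0.03 for H1f6, 0.07 for H2bc1 and 0.03 for H2ac1 had limma adjusted p of 0.997. That of H2ac1 was -0.07 without knockout 4 and -0.03 without wildtype 1, and that of H1f6 was -0.0067 without knockout 3 or without wildtype 1.

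Among H2A genes, H2ac4 had the smallest p. It read 5.45, 5.48, 5.77 and 5.80 in knockouts, against 6.04, 5.85, 5.78 and 5.80 in wildtype mice. Knockout 1 and 2 lay clearly below every wildtype mouse, knockout 3 just below the lowest, and knockout 4 level with wildtype 4. The difference was -0.24 ± 0.102 (SE; 95% interval -0.47 to -0.02; unadjusted p = 0.0382, limma adjusted p = 0.997), or -0.13 without wildtype 1 and knockout 1. Within the lower series of mouse numbers it was -0.44 and within the higher -0.12, each with 1 mouse on one side. All its readings lie within the range of the Vmn1r receptors.

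H2ac15 had the highest mean reading of the family. It read 9.25, 9.68, 10.16 and 10.21 in knockouts, against 9.11, 9.52, 9.62 and 9.83 in wildtype mice. Its lowest values were those of wildtype 1 and knockout 1, and the groups overlap. The difference of 0.30 ± 0.214 (SE; limma adjusted p = 0.997) had a 95% interval from -0.17 to 0.78. It was 0.50 without knockout 1, 0.19 without knockout 3, 0.18 without knockout 4, 0.17 without wildtype 1 and 0.01 in a fit blocked on the mouse-number series. Its head-to-head partner H2bc15 differed by 0.11 ± 0.095 (SE), or 0.03 without knockout 3 and 0.0050 in the blocked fit.

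Of the other H2A genes, H2ac20, an H2A gene of the chromosome 3 cluster, had 8.94, 8.91, 9.05 and 9.44 in knockouts, against 9.0, 9.13, 8.91 and 8.83 in wildtype mice. Its difference of 0.12 rested on knockout 4 and was -0.0008 without it. H2ac6 had 6.33, 6.41, 6.36 and 6.5 in knockouts, against 6.24, 6.37, 6.23 and 6.26 in wildtype mice. Knockout 2 and 4 stood above all wildtype mice and the other knockouts above all but wildtype 2, and the difference was 0.13 ± 0.070 (SE; limma adjusted p = 0.997). H2ac21 differed by -0.16, or -0.07 without knockout 1 and -0.09 without wildtype 1, and H2ac8, with one of the lowest means, by -0.09, or -0.02 without wildtype 4.

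The 3 members with the largest SD over the 8 arrays were the H2B genes H2bc11 (0.549) and H2bc4 (0.407) and the H4 gene H4c6 (0.415). H2bc11 had 6.53, 6.22, 6.86 and 7.51 in knockouts, against 7.06, 6.88, 5.91 and 6.05 in wildtype mice. With a range this wide in both groups, its difference of 0.30 ± 0.309 (SE) had a 95% interval from -0.38 to 0.99. It was 0.06 without knockout 4 and 0.12 without wildtype 3. H2bc18 of chromosome 3 had 6.45, 6.37, 6.58 and 6.64 in knockouts, against 7.34, 6.77, 6.59 and 6.55 in wildtype mice. Wildtype 1 was the high value, and the difference of -0.30 ± 0.157 (SE; unadjusted p = 0.0818, limma adjusted p = 0.997) was -0.13 without it.

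H2bc4 had 8.47, 9.03, 9.19 and 9.22 in knockouts, against 8.07, 9.06, 8.95 and 9.13 in wildtype mice. Here too wildtype 1 and knockout 1 were the lowest, and the difference of 0.17 ± 0.236 (SE) was -0.07 without wildtype 1 and 0.34 without knockout 1. H2bc22 had 7.47, 7.30, 8.13 and 7.48 in knockouts, against 7.35, 7.11, 7.45 and 7.58 in wildtype mice, a difference of 0.22 that was 0.04 without knockout 3. H2bc21, whose product H2BE is known in mice from olfactory neurons, had 6.95, 7.02, 7.16 and 7.53 in knockouts, against 6.87, 7.16, 7.24 and 7.24 in wildtype mice. Its difference of 0.04 was -0.08 without knockout 4 and -0.05 without wildtype 1. The 6 H2B genes not named so far, apart from the testis form, had differences between -0.10 and 0.05.

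**Figure D3:**
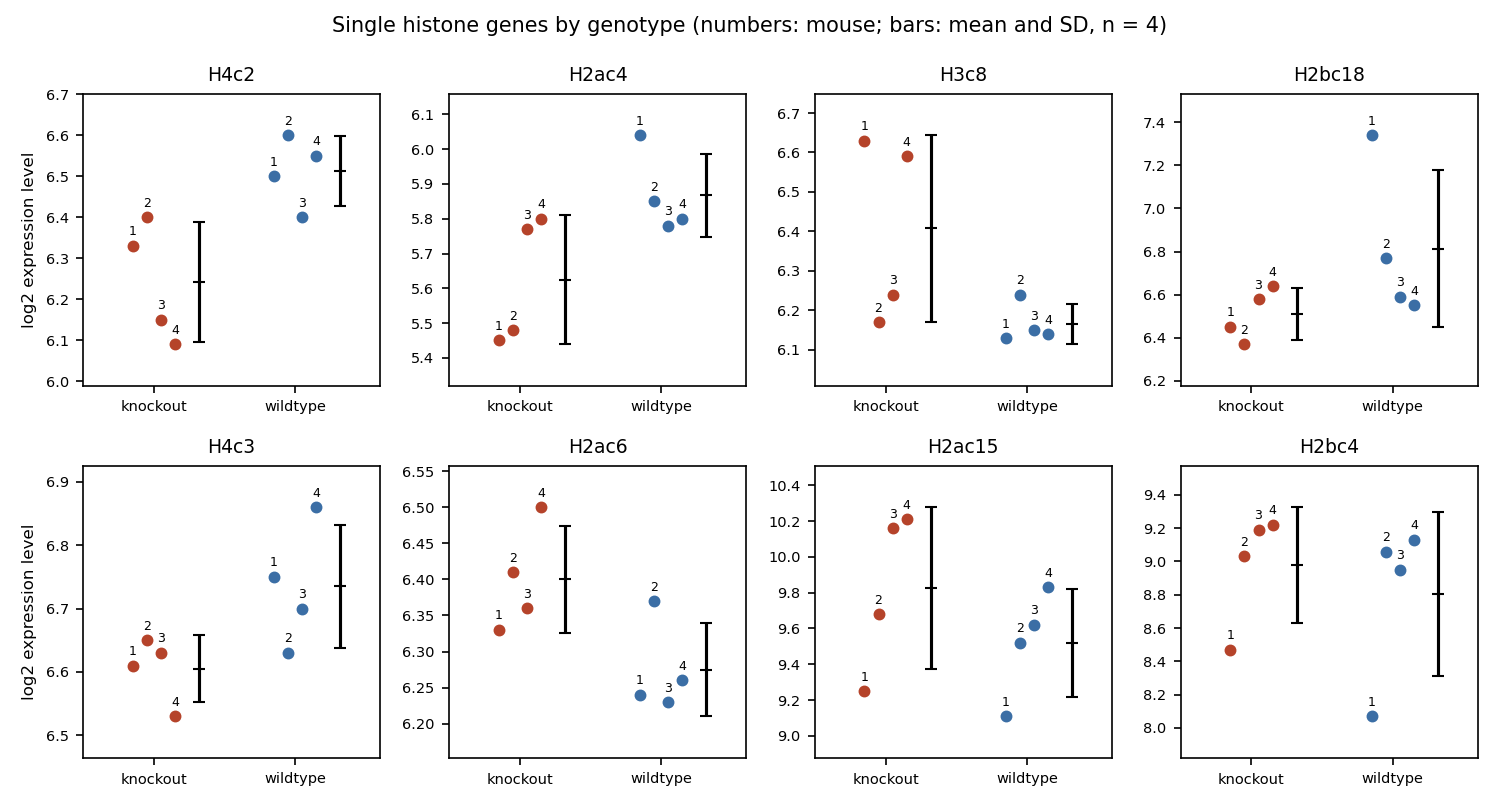
Log2 expression level (vertical axes, each with its own range) of 8 single histone genes, with knockout mice left and wildtype mice right, numbered by animal, and bars for mean and SD (n = 4). For H2bc18 the value of wildtype 1 is the highest, while for H2ac15 and H2bc4 wildtype 1 and knockout 1 are the lowest; in every panel the groups overlap or touch.

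H3 genes were mostly dim. H3c8, an H3.1 gene, had 6.63, 6.17, 6.24 and 6.59 in knockouts, against 6.13, 6.24, 6.15 and 6.14 in wildtype mice. Knockout 1 and 4 were above all wildtype mice and knockout 2 and 3 were among them. The mean of H3c8, 6.29, lay within the receptor range. The difference was 0.24 ± 0.109 (SE; 95% interval 0.0012 to 0.48; unadjusted p = 0.0491, limma adjusted p = 0.997). Within the lower series of mouse numbers it was 0.46 and within the higher 0.19, each with 1 mouse on one side. Without both arrays that stand apart it was 0.16. H3c1 and H3c7 were among the 3 lowest means, at 5.11 and 5.39, and differed by -0.11 and 0.04. H3c14, the H3 gene with the highest reading, ran from 6.29 to 7.14 in knockouts and from 6.5 to 7.34 in wildtype mice.

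H4 was the class with the most one-sided differences, 6 of 7 negative with a median of -0.13, but 4 of 7 without wildtype 1. H4c2 had the smallest p of all members. It read 6.33, 6.40, 6.15 and 6.09 in knockouts, against 6.5, 6.60, 6.40 and 6.55 in wildtype mice. Knockout 2 and wildtype 3 shared the value 6.40, and all other knockouts lay below all wildtype mice. The mean of H4c2, 6.38, lay just above the 95th percentile of the receptors, 6.36, and knockouts 1, 3 and 4 read below that percentile. The difference was -0.27 ± 0.087 (SE; 95% interval -0.46 to -0.08; unadjusted p = 0.0108, limma adjusted p = 0.997). It was -0.17 within the lower series of mouse numbers and -0.34 within the higher, each with 1 mouse on one side. H4c3 had 6.61, 6.65, 6.63 and 6.53 in knockouts, against 6.75, 6.63, 6.70 and 6.86 in wildtype mice, a difference of -0.13 ± 0.072 (SE; limma adjusted p = 0.997).

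In 4 other H4 genes, H4c4, H4c6, H4c8 and H4c14, wildtype 1 read highest of the 8 arrays. H4c6 had 6.30, 6.77, 6.37 and 6.45 in knockouts, against 7.59, 6.49, 6.47 and 6.52 in wildtype mice, and its difference of -0.29 was -0.02 without wildtype 1. H4c4 had 8.84, 8.58, 8.34 and 8.60 in knockouts, against 9.50, 8.42, 8.60 and 8.41 in wildtype mice, and its difference of -0.14 was 0.11 without wildtype 1. H4c14 had 8.87, 8.58, 8.80 and 9.13 in knockouts, against 9.43, 8.50, 8.73 and 9.04 in wildtype mice, and its difference of -0.08 was 0.09 without wildtype 1 and 0.0083 without knockout 2. H4c8 differed by -0.13, or -0.05 without wildtype 1, and H4c9 by 0.05, or 0.02 without it. As the H4 genes encode one protein and may share probe targets, they are not separate observations.

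Spread between mice was wider in the histone genes than in the table at large. The median SD within a genotype was 0.181 over the 43 genes and 0.132 over all probe sets, and 28 of 43 exceeded the latter. Such spread was not particular to them. The same median was 0.178 over the 10 replacement histone genes, 0.151 over the chaperones and 0.0893 over the markers of dividing cells. Relative to the mean of the other wildtype mice, wildtype 1 differed by more than 0.5 log2 units in 9 of 43 genes (20.9%), against 7.30% of all probe sets. It was higher for H4c6 (1.10), H4c4 (1.02), H1f4 (0.90), H2bc11 (0.78), H2bc18 (0.70) and H4c14 (0.67), and lower for H2bc4 (-0.98), H2bc3 (-0.64) and H2ac15 (-0.55). Knockout 1 differed from the other knockouts by that much in 3 of 43 genes (6.98%), against 3.24% of all probe sets, all lower: H1f1 (-0.77), H2ac15 (-0.77) and H2bc4 (-0.68). Thus H2bc4 and H2ac15 were low on both arrays that stand apart over all genes, whereas no H4 gene differed by that much on knockout 1. The part of array quality in these values was not tested.

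**Figure D4:**
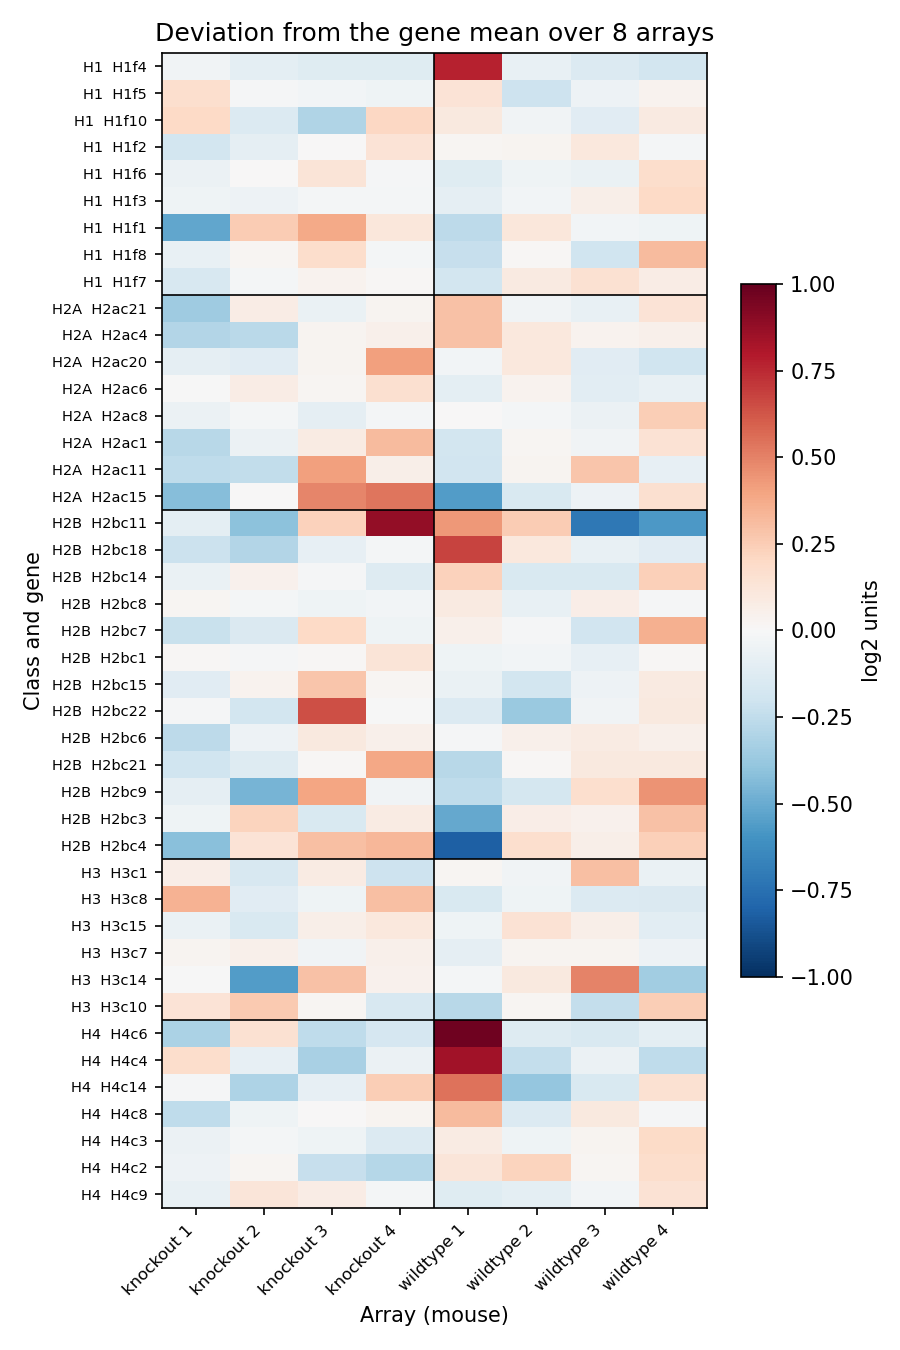
Deviation of each reading from its gene's mean over the 8 arrays (colour, log2 units), with genes in rows by class and arrays in columns, knockout left of wildtype. On wildtype 1 the genes H4c6, H4c4, H1f4, H2bc18 and H4c14 are high and H2bc4 and H2ac15 low; no column block separates the genotypes.

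Blood markers varied between mice beside the H2A genes. The mean deviation of the 8 H2A genes was -0.22, -0.07, 0.11 and 0.19 in knockouts 1 to 4, against -0.06, 0.01, -0.02 and 0.05 in wildtype 1 to 4. For the 8 measured of 15 listed red cell and leukocyte markers it was -0.20, -0.06, 0.12 and 0.22 in knockouts, against -0.09, -0.02, -0.05 and 0.08 in wildtype mice. By these means knockout 1 was lowest and knockout 4 highest in both sets, and also over all 43 members (-0.10 and 0.07). In the 13 H2B genes knockouts 1 to 4 stood at -0.13, -0.10, 0.15 and 0.12, and in the 9 H1 genes at -0.08, -0.01, 0.03 and 0.03. In H3 genes they stood at 0.08, -0.11, 0.06 and 0.02, and in H4 genes at -0.085, -0.02, -0.12 and -0.06. On the first principal component over all probe sets they stood at 0.10, 0.0056, -0.08 and -0.11. By medians, the blood markers stood at -0.10, -0.0094, 0.16 and 0.0025 in knockouts, against -0.07, -0.02, -0.02 and 0.09 in wildtype mice, so that knockout 3 was highest. The blood mean of knockout 4 held Hbb-b1, a haemoglobin chain, at 8.14, where the other 7 arrays read 6.06 to 6.91, while Ly6g, a neutrophil marker, was lowest of the 8 arrays there, at 5.58. The part of blood in the H2A readings was not tested.

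Regulators of histone genes did not pass the test either, at 0 of 22 listed genes of transcription and 3′ processing (12 positive, 10 negative, median 0.02). At an unadjusted limma p under 0.05 there was 1 of the 22 (4.55%, against 3.16% of all probe sets). That gene was Npat, the cell cycle coactivator of the histone clusters. It read 8.86, 8.74, 8.69 and 8.93 in knockouts, against 8.23, 8.57, 8.56 and 8.50 in wildtype mice. All knockouts lay above all wildtype mice, where 2.16% of all probe sets do not overlap in either direction. The difference was 0.34 ± 0.094 (SE; unadjusted p = 0.0045, limma adjusted p = 0.997). Eri1, an exonuclease that trims the stem-loop end, differed by 0.20 and Srrt, a partner of the cap-binding complex, by -0.16.

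Chaperones and modifiers of new histones had 11 positive and 10 negative differences among 21 measured of 22 listed genes, with a median of 0.0025 and none past the adjusted threshold. At an unadjusted limma p under 0.05 stood 1 of the 21 (4.76%, against 3.16% of all probe sets), Hat1, the acetyltransferase of newly made H4. It read 8.42, 8.23, 8.53 and 8.66 in knockouts, against 7.93, 8.12, 8.26 and 8.08 in wildtype mice. Knockout 2 fell just under wildtype 3, and the difference was 0.36 ± 0.104 (SE; unadjusted p = 0.00561, limma adjusted p = 0.997). Atrx, a remodeller that helps place H3.3, differed by 0.19 and Nap1l1, an H2A-H2B chaperone, by 0.14. Of 10 measured genes for replacement histones, of which H1f10 is also a member, 3 were positive and 7 negative. None of the 10 had an unadjusted limma p under 0.05, against 3.16% of all probe sets. The smallest p among them were those of H2az2 (-0.14), H2aj (-0.13) and H2az1 (0.12).

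Markers of dividing cells gave no shared direction, with 15 positive and 17 negative differences in 32 measured of 34 listed genes and a median of -0.0063. Mki67, the proliferation antigen, had 6.55, 6.85, 7.0 and 7.14 in knockouts, against 6.87, 7.01, 6.95 and 7.31 in wildtype mice. Top2a, the topoisomerase of dividing cells, had 6.56, 6.33, 6.26 and 6.39 in knockouts, against 6.42, 6.30, 6.31 and 6.45 in wildtype mice. Both overlap between genotypes. Tpx2, a spindle assembly factor, was the 1 gene of the list at an unadjusted limma p under 0.05 (3.125%, against 3.16% of all probe sets). Its difference was 0.16 ± 0.068 (SE; unadjusted p = 0.0421, limma adjusted p = 0.997). Aurkb, a mitotic kinase, differed by 0.13 (limma adjusted p = 0.997). In Tpx2 and Aurkb, 2 of the 32 genes, all knockouts lay above all wildtype mice, where 2.16% of all probe sets do not overlap in either direction. Mcm6, of the replicative helicase, differed by -0.23. Dcx, of newborn neurons, had 8.72, 8.64, 8.77 and 8.68 in knockouts, against 8.42, 8.39, 8.37 and 8.41 in wildtype mice. All knockouts lay above all wildtype mice, with a difference of 0.30 ± 0.063 (SE; unadjusted p = 0.000631, limma adjusted p = 0.997). Dcx was 1 of 11 measured neural stem cell and newborn neuron genes, whose differences ran from -0.42 to 0.30. Of the 11, 1 positive and 1 negative had an unadjusted limma p under 0.05 (18.2%, against 3.16% of all probe sets). In 2 of the 11 the genotypes did not overlap, against 2.16% of all probe sets. The 10 neuron and hippocampal markers, such as Snap25 and Prox1, had a median level of 11.4, well above the 7.52 of all probe sets.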

How the data were processed

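Whole hippocampus of 8 mice, 1 array each, was measured on Affymetrix whole-transcript arrays. The authors deposited log2 expression values for each probe set on each array, and per the submitters' processing notes they used R 2.9, limma and RMA (background subtraction, quantile normalization and probe summary). The sources used here do not give settings, probe set definition or genome build. Detection calls were not used. The precision is limited by the number of arrays. Genotype came from the titles, and replicate numbers follow record order and pair nothing.

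All 20985 probe sets were fitted with limma (version 3.58.1, under R 4.3.3) by lmFit followed by eBayes, with 1 term for genotype and two-sided p-values, with Benjamini-Hochberg adjustment over all of them and a threshold of 0.05. All 43 members were found in the RefSeq gene table (GRCm38.p6), which gave chromosomes and older names. The fit was tested on simulated data. No set test was run. The 11 lists held 164 names, 150 of them matched. Single genes were named by rule: the 5 positive and 5 negative members of smallest p, the 4 highest and 3 lowest means, the 3 largest SDs, the H1 and testis members, H2bc21, and the 3 smallest p of 4 lists. H2ac11, H2bc3, H2bc8, H3c14, H4c4, H4c8, H4c9, H1f7, H1f8, H1f10, H2aw, H2bu2, H4f16, Hbb-b1 and Ly6g were named after their values were seen. Members and lists were chosen with earlier results of these data known. Alternatives, also so chosen, are given in the closing section.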

Additional observations from a re-analysis of the deposited data

Results flagged for a closer look

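In groups of 4 mice, a single value was marked where its gap to the nearest other was a larger share of the group's range than Dixon's 95% critical value. Over 86 groups (43 genes in 2 genotypes) 4 were marked, and chance marks about 1 group in 20. H4c6 read 7.59 in wildtype 1, against 6.47 to 6.52 in the other wildtype mice. H1f4 read 9.14 in wildtype 1, against 8.19 to 8.30 in the others. H2bc4 read 8.07 in wildtype 1, against 8.95 to 9.13 in the others. H1f5 read 7.75 in knockout 1, while the remaining knockouts lay between 7.54 and 7.57. All 4 values come from wildtype 1 and knockout 1, the 2 arrays with the widest interquartile ranges.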

How the results depend on the processing

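No paired analysis was possible because the labels give each mouse its own number and share none between genotypes. No member passed the adjusted threshold in any of 17 alternatives, where the lowest limma adjusted p of a member was 0.805. Probe sets past it numbered 2 with array weights or repeated quantile normalization and 1 otherwise. Members at an unadjusted p under 0.05, 3 in the fit reported, numbered 5 in a fit blocked on the mouse-number series and 1 to 3 with 1 mouse left out (1 without wildtype 1 or 2). Positive and negative ones among them were 1 and 2 as reported, 0 and 4 with array weights, 1 and 4 with the block, 0 and 2 with repeated quantile normalization, 0 and 3 without wildtype 4, and 2 and 1 without knockout 1 or without both arrays that stand apart. They numbered 0 after removal of the dimmest 25% or 50% of the table, where 26 and 13 members remained and H4c2, H2ac4 and H3c8 were not among them. H4c2 stayed under 0.05 in 15 of 15 alternatives that kept it, H2ac4 in 10 and H3c8 in 6. The median difference ran from -0.07 with the block to 0.02 without knockout 2 or without both arrays that stand apart.

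Of 27 members named by the rule, 16 kept their sign in every alternative run and 11 did not. With the block, H1f1 was -0.0867, H1f6 -0.0567, H2ac1 -0.12, H2bc21 -0.0717 and H2bc4 -0.103. With array weights, H2ac1 was -0.0215, H2bc21 -0.0881 and H4c6 0.0293. Without both arrays that stand apart, H1f4 was 0.0167, H2ac21 0.0033, H4c14 0.08 and H4c6 0.0367. With 1 mouse left out, differences ran from -0.28 to 0.0367 for H1f4, -0.0183 to 0.095 for H1f5, -0.0067 to 0.0933 for H1f6, -0.0692 to 0.13 for H2ac1, -0.000833 to 0.18 for H2ac20, -0.0842 to 0.11 for H2bc21, -0.0692 to 0.34 for H2bc4 and -0.22 to 0.0883 for H4c14. The cause of these shifts was not tested.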

Other observations

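Some genes with older Hist names carry current symbols that the name rule does not take. H2aw, an H2A gene known before as Hist3h2a, had 9.30, 9.53, 9.54 and 9.33 in knockouts, against 9.60, 9.51, 9.53 and 9.65 in wildtype mice, a difference of -0.15 (limma adjusted p = 0.997). H2bu2 differed by 0.13 and H4f16 by -0.06. H4f16 read highest in wildtype 1 (7.80, against 7.09 to 7.36 in the other wildtype mice), as did H4c6, H4c4 and H4c14.

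Head-to-head partners read differently from each other. The mean was 9.67 for H2ac15 and 7.94 for H2bc15, 5.41 for H2ac11 and 6.63 for H2bc11, 5.41 for H2ac8 and 6.65 for H2bc8, and 7.42 for H2ac1 and 5.70 for H2bc1. These are readings of different probes and do not give amounts.

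Of the other marker lists, positive and negative differences numbered 5 and 3 for oligodendrocyte precursors, 7 and 4 for neural stem cells and newborn neurons, 5 and 4 for microglia, 1 and 9 for vessels and 1 and 8 for choroid plexus. Over all probe sets 48.3% of differences were positive. The choroid plexus mean deviation was -0.26 to -0.00903 in knockouts, against -0.16 to 0.81 in wildtype mice, with the top value in wildtype 2. That of the vessel genes was -0.12 to 0.09 in knockouts, against -0.06 to 0.16 in wildtype mice, with the top value in wildtype 1. Of the 10 vessel genes, 1, with a negative difference, had an unadjusted limma p under 0.05 (10%, against 3.16% of all probe sets).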
